A study of Mus musculus with 18 samples.

Results

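Gastruloids are cultured aggregates of mouse embryonic stem cells in which the germ layers and a body axis arise. The step described here is the second day after an early Wnt pulse: the 3 libraries of gastruloids collected at 96 h after aggregation were compared with the 3 collected at 72 h. These 6 libraries, of 18 in the series, were taken by their age and treatment labels. Both groups were wild type (WT), of the strain 129/SVEV, and both had received CHIR between 24 and 48 h. CHIR blocks the kinase GSK3 and thereby switches on Wnt/β-catenin signalling. No agent was listed between 72 and 96 h. The control arm received CHIR between 48 and 72 h, and each arm was sampled at 48, 72 and 96 h in 3 libraries, so the controls of 48 h were untreated. PolyA RNA was extracted from gastruloids pooled per condition. The labels do not say whether the replicates were separate cultures, so p-values measure the spread between these libraries, which may be technical.

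In the embryo, Wnt and Nodal signals at the posterior epiblast induce the primitive streak, where cells lose epithelial contacts and leave as mesoderm and endoderm. Brachyury (T), a T-box factor, is needed for posterior mesoderm, and the neighbouring factors Eomes, Mixl1, Gsc and Foxa2 mark the anterior streak, the organizer and early endoderm. Later posterior tissue is marked by Cdx and Hox genes, presomitic mesoderm by Tbx6 and Msgn1, and somites by Meox1 and Tcf15. A transient Wnt activation is the usual trigger for this series of events in gastruloids.

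Levels are CPM, read counts scaled to the TMM-adjusted size of each library, given for libraries 1, 2 and 3 of each age. CPM is not divided by transcript length, so levels were compared between ages and not between genes unless FPKM is named. Changes are log2 fold changes ± SE of 96 h over 72 h, from edgeR's quasi-likelihood test over all 18 libraries with 1 coefficient per group, with Benjamini-Hochberg adjustment over 16041 genes. A gene was said to rise or fall at an adjusted p under 0.05. Total counts were 16699284 to 24536538 in the 6 libraries. Where pure counting noise would give 1, the chi-square divided by its degrees of freedom was 1.41 to 3.32 between replicates of 72 h and 3.12 to 7.90 between those of 96 h. In the control arm, replicate 3 stood apart at each age, with values of 15.4 to 28.1 against its partners. Differences from a control step are therefore also given without the 3 control libraries numbered 3.

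Between 72 and 96 h, 2826 genes rose and 2830 fell, which is 35.3% of the 16041 tested and 17.6% in each direction. Most changes were small: the median size among called genes was 0.45 on the log2 scale, and the median over all tested genes was 0.0079. A called change of at least 2-fold was found for 1151 genes (7.18%), 420 of them higher (2.62%) and 731 lower (4.56%). Against a null of a 2-fold change, rather than of none, edgeR called 109 genes, 63 higher and 46 lower. On the deposited FPKM values the balance differed: limma called 4751 genes on log2(FPKM + 1), of which 65.1% were higher, against 2826 of 5656 on counts. With DESeq2 size factors in place of TMM, edgeR called 2613 genes higher and 3040 lower, so the even split depended on the scaling. Without the 3 control libraries numbered 3, which enter the shared estimate of the spread, 7514 genes were called in this step. In bulk RNA, fewer cells of a type and less RNA per cell cannot be told apart, and this holds for every level below.

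**Figure D1:**
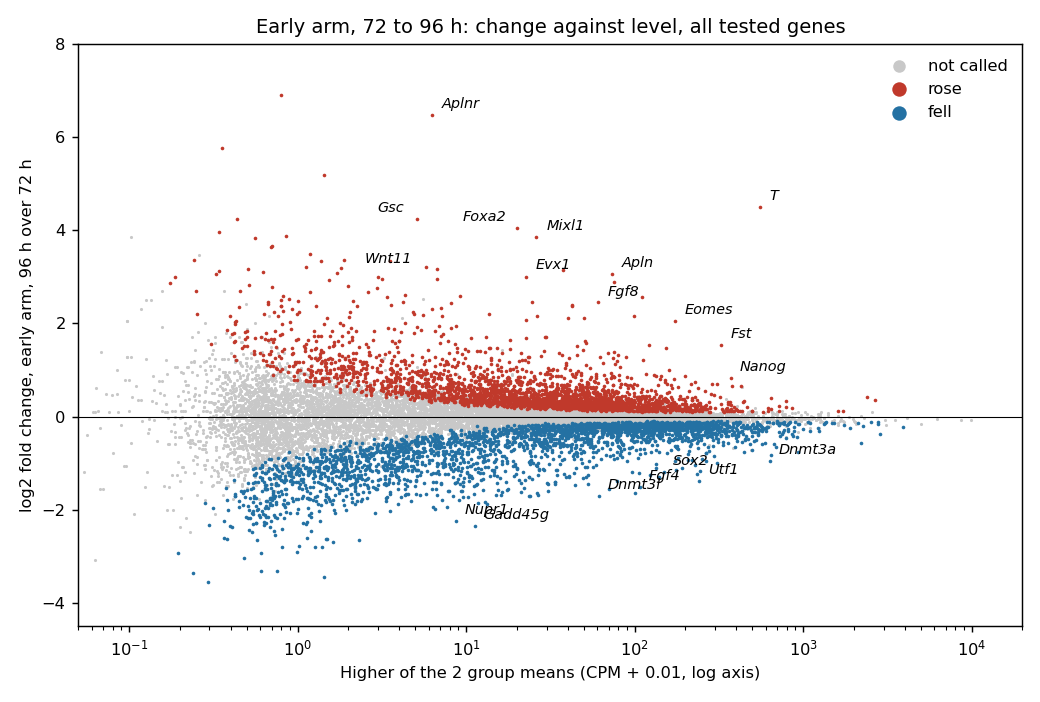
Log2 fold change of the early arm from 72 to 96 h (vertical axis) against the higher of the 2 group means in CPM + 0.01 (horizontal log axis), 1 point per tested gene. Genes that rose are red, genes that fell blue and genes not called grey. T stands apart at a change of 4.49, with Aplnr, Gsc, Foxa2 and Mixl1 at 3.85 to 6.47.

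The marker genes of a tissue were summed per library to check what the gastruloids held. Streak and nascent mesoderm markers (T, Mixl1, Eomes, Mesp1) summed to 67.2 to 70.4 CPM at 72 h and 650.4 to 833 CPM at 96 h, and 3 of the 4 rose. The sum of pluripotency markers (Pou5f1, Nanog, Sox2, Zfp42) stayed high, at 1732 to 1755 CPM and 1732 to 1828 CPM. Pou5f1 made up most of this sum, and of the 4 markers 1 rose (Nanog) and 2 fell (Sox2 and Zfp42). Definitive endoderm markers (Sox17, Foxa2) went from 1.55 to 2.08 CPM to 18.5 to 23.9 CPM, and of the pair Foxa2 was called. Presomitic markers (Tbx6, Msgn1, Hes7) summed to only 0.733 to 0.834 and 0.924 to 2.10 CPM, and somite markers (Meox1, Tcf15, Pax3) to 6.14 to 7.70 and 3.03 to 3.93 CPM. Germ cell markers (Dazl, Ddx4, Nanos3) summed to 39.0 to 40.6 CPM at 72 h and 20.6 to 23.3 CPM at 96 h, and 2 of the 3 fell. Neural markers (Sox1, Pax6) summed to 4.91 to 5.42 and 1.94 to 3.47 CPM, and 1 of the 2 fell.

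The few markers summed for feeder fibroblasts, trophoblast, blood and endothelium, and extraembryonic endoderm were low at both ages. Feeder fibroblast markers summed to 3.18 to 3.42 and 3.65 to 4.36 CPM, with Lum at 0 in all 6 libraries. Trophoblast markers summed to 2.08 to 2.58 and 1.52 to 2.60 CPM, with Elf5 at 0 at 72 h. Blood and endothelial markers summed to 4.11 to 5.36 and 3.41 to 4.62 CPM, with Hbb-bh1 at 0 throughout. Extraembryonic endoderm markers (Sox7, Afp, Ttr, Amn) summed to 3.87 to 5.01 and 5.30 to 5.54 CPM. Of these, Ttr, a thyroid hormone carrier of visceral endoderm, rose from 0.347 ± 0.0625 to 1.23 ± 0.0847 CPM (SD, n = 3 at each age). The part of these cell types in the results was not tested.

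Primitive streak genes had the highest median change of the 38 gene lists. Of 13 on a list of streak and organizer genes, 11 rose and 0 fell, 10 of the 11 by at least 2-fold, with a median log2 fold change of 2.47. Of all tested genes 17.6% rose, and 26.9% had every library of 96 h above every library of 72 h, as each of these 11 had. T read 25.5, 21.9 and 26.9 CPM at 72 h and 641, 541 and 478 CPM at 96 h. The libraries of 96 h were all high, all of 72 h were low, and the change was 4.49 ± 0.18, edgeR adjusted p = 2.81e-11. Eomes, the T-box factor of the anterior streak, read 43.0, 44.4 and 38.5 CPM at 72 h and 165, 202 and 154 CPM at 96 h (2.05 ± 0.35, edgeR adjusted p = 0.000198). Its levels did not overlap between the ages either, but it was already well expressed at 72 h.

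Of the 19 streak, caudal and presomitic genes that rose, 14 had an entry in the RefSeq promoter table (build GRCm38.p6). The entries span 250 bases before to 50 after the start and were searched on both strands for 3 motifs, none of which contains another. The letters TCACACCT, part of a T-box site, stood in 1.28% of all 32851 promoters and in 0 of the 14 genes. CTTTGAT, a TCF/LEF site, stood in 3.73% of all promoters and in those of Sp5 and Greb1. TTTATNG, a CDX site, stood in 10.9% and in those of T and Evx1. Cdx1, Fgf17, Fgf8, Mixl1 and Rspo3 had no entry. The 250 bases upstream of the start are shown for 3 genes that rose at least 5-fold and hold a match, written 5′ to 3′ on the plus strand with the match in capitals: T at chr17:8434173-8434422 (+), Sp5, a zinc-finger factor that is a direct Wnt target, at chr2:70474673-70474922 (+), and Evx1, a homeobox factor of the posterior streak, at chr6:52313248-52313497 (+). A match is a description of letters and no evidence of binding.
T: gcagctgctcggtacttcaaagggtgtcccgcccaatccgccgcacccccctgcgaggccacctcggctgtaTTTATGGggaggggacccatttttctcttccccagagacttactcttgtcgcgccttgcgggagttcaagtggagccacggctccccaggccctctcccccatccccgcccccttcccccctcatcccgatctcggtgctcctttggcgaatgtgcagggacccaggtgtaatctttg
Sp5: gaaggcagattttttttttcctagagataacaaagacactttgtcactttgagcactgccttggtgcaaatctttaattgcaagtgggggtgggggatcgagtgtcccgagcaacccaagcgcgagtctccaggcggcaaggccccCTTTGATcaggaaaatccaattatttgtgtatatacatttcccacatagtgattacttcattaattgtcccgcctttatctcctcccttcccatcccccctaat
Evx1: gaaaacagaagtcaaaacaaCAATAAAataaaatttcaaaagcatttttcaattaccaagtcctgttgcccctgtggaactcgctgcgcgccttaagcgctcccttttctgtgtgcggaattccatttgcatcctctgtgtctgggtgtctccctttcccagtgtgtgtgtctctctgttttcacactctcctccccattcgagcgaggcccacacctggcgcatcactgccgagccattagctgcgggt

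In T the match TTTATGG began at -178 from the start, in Sp5 CTTTGAT began at -104, and in Evx1 the CDX letters were on the opposite strand, read as CAATAAA from -230. Sp5 read 4.76, 4.24 and 4.35 CPM at 72 h and 23.0, 27.7 and 22.8 CPM at 96 h (2.46 ± 0.17, edgeR adjusted p = 5.81e-08). Evx1 read 3.72, 2.61 and 2.15 CPM at 72 h and 21.4, 27.2 and 19.8 CPM at 96 h (3.01 ± 0.34, edgeR adjusted p = 2.87e-06). In both genes the ages were well separated. Evx1os, the antisense neighbour of Evx1, moved the same way, from 1.51 ± 0.219 to 8.07 ± 1.83 CPM (SD, n = 3). Whether the counting used strand is not given in the sources used here, so reads of such a pair may be shared.

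Several genes of the anterior streak, organizer and early endoderm rose from low levels. The definitive endoderm list as a whole did not: of 9 tested members 2 rose, 1 fell and 6 were not called, where 17.6% of all genes moved in each direction. Mixl1, a homeobox factor of mesendoderm, read 1.84, 1.87 and 1.67 CPM at 72 h and 26.0, 33.6 and 18.3 CPM at 96 h (3.85 ± 0.66, edgeR adjusted p = 0.000218). Gsc, the organizer factor goosecoid, read 0.198, 0.163 and 0.477 CPM at 72 h and 4.48, 6.54 and 4.22 CPM at 96 h (4.25 ± 0.60, edgeR adjusted p = 3.58e-05). Foxa2, a forkhead factor of axial mesoderm and endoderm, read 1.64, 0.856 and 1.19 CPM at 72 h and 19.6, 22.6 and 17.8 CPM at 96 h (4.04 ± 0.32, edgeR adjusted p = 7.82e-08). All 3 were low at 72 h. They are among the largest rises, for which no overlap between the ages was a condition. Lhx1, a LIM factor of the organizer and later mesoderm, read 1.54, 1.51 and 1.55 CPM at 72 h and 10.6, 11.6 and 5.43 CPM at 96 h (2.59 ± 0.69, edgeR adjusted p = 0.0069), with replicate 3 of 96 h lowest. Cer1, a secreted Nodal and BMP antagonist of anterior endoderm, read 0.248, 0.163 and 0.119 CPM at 72 h and 2.49, 2.51 and 0.635 CPM at 96 h (3.36 ± 0.58, edgeR adjusted p = 0.000229). Again the third library of 96 h was low, though still above every library of 72 h.

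The signals of the streak rose as well. Fgf8, the growth factor by which streak cells move away, read 11.3, 10.4 and 11.5 CPM at 72 h and 64.9, 63.9 and 53.9 CPM at 96 h (2.47 ± 0.21, edgeR adjusted p = 1.67e-07). Wnt3, the Wnt ligand needed to form the streak, read 16.8, 18.05 and 16.4 CPM at 72 h and 51.4, 54.3 and 47.8 CPM at 96 h (1.58 ± 0.20, edgeR adjusted p = 1.24e-05). The 3 libraries of an age were close together in both. Snai1, which represses E-cadherin, read 3.92, 3.46 and 3.87 CPM at 72 h and 7.46, 8.15 and 5.14 CPM at 96 h (0.89 ± 0.27, edgeR adjusted p = 0.0141). The streak list's 2 uncalled members were Nodal, at 198, 202 and 196 CPM at 72 h and 181, 179 and 181 CPM at 96 h (log2 fold change -0.14 ± 0.18, edgeR adjusted p = 0.583), and Mesp1, a factor of leaving mesoderm, which had at most 0.142 CPM in any of the 6 libraries. Nodal was called lower, at about the same size, on the 6 libraries alone (edgeR adjusted p = 0.00919) and without the 3 control libraries numbered 3 (0.0426), which makes 1 fall in the streak list. Nodal was thus strongly expressed at both ages, whereas Mesp1 was near 0.

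**Figure D2:**
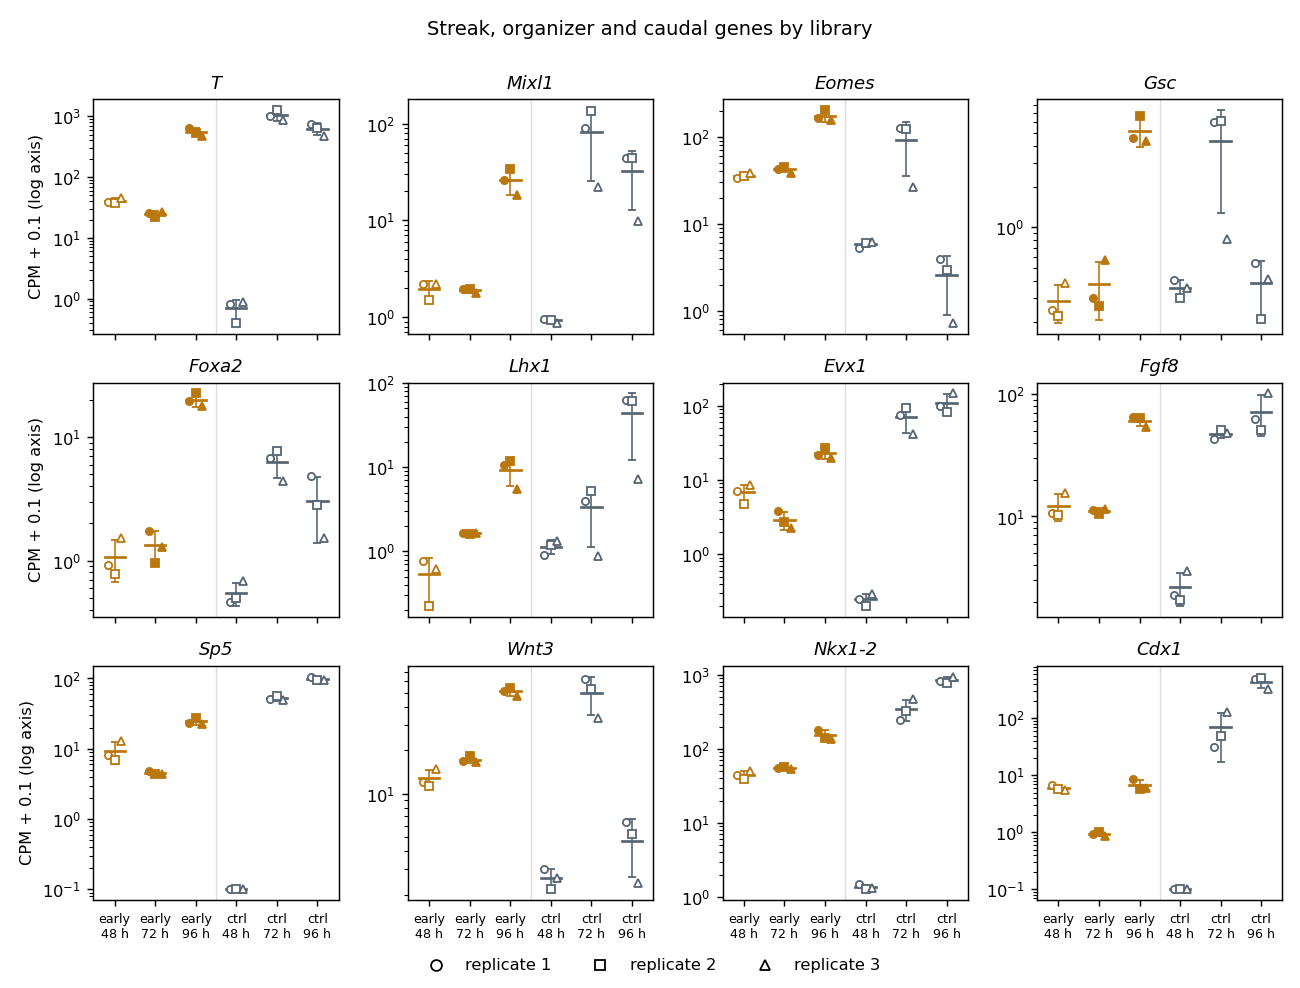
CPM + 0.1 on log axes of 12 streak, organizer and caudal genes in all 18 libraries, early arm (orange) and control arm (grey, labelled ctrl) at 48, 72 and 96 h. Filled points are the 6 libraries compared, horizontal lines the means and error bars the SD. In each panel the 3 early libraries of 96 h lie above the 3 of 72 h. In T, for example, they stand at 478 to 641 CPM against 21.9 to 26.9 CPM.

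The caudal and tailbud list behaved like the streak list, with which it shares members: 10 of 14 rose, 1 fell (Sox2, described with the pluripotency genes), and the median change was 1.74. Nkx1-2, a homeobox gene of the caudal epiblast, read 54.5, 57.4 and 53.5 CPM at 72 h and 183, 140.2 and 136 CPM at 96 h (1.47 ± 0.17, edgeR adjusted p = 3.09e-06). Cdx1 and Cdx2, the homeobox regulators of posterior identity, were low at both ages. Cdx1 read 0.843, 0.937 and 0.775 CPM at 72 h and 8.51, 5.68 and 6.01 CPM at 96 h (2.95 ± 0.79, edgeR adjusted p = 0.0087), and Cdx2 read 0.546, 0.937 and 0.417 CPM at 72 h and 4.2, 3.27 and 3.18 CPM at 96 h (2.40 ± 0.53, edgeR adjusted p = 0.00183). Both stayed under 9 CPM, and their ages did not overlap. Cdx4 read 0.0992, 0.0815 and 0.238 CPM at 72 h and 0.829, 0.521 and 0.289 CPM at 96 h and was not called (adjusted p = 0.401). It was called higher, by 2.02, with no filter (edgeR adjusted p = 0.000555) and without the 3 control libraries numbered 3 (0.0041). Cyp26a1, which degrades retinoic acid in the tailbud, rose from 1.88 ± 0.343 to 4.3 ± 0.287 CPM, and Fgf17, a relative of Fgf8, from 3.72 ± 0.403 to 9.38 ± 0.484 CPM (SD, n = 3). Wnt3a, the tailbud Wnt ligand, rose from 12 counts in all at 72 h to 104 at 96 h, a change of 3.19 that became 3.85 without replicate 1 of 72 h.

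In the presomitic list 2 of 10 tested members rose and 2 fell. The risers were 4 with no filter, on the 6 libraries alone and without the 3 control libraries numbered 3, and 1 member fell without replicate 2 of 96 h. Tbx6, the T-box factor that commits cells to presomitic mesoderm, read 0.546, 0.53 and 0.656 CPM at 72 h and 1.6, 0.8998 and 0.809 CPM at 96 h. Its ages did not overlap, and the change of 0.94 ± 0.74 was not called (edgeR adjusted p = 0.349). At about the same size it was called with no filter (0.0111), on the 6 libraries alone (0.0258) and without the 3 control libraries numbered 3 (0.0119). Msgn1, its partner factor, had 1 count over the 3 libraries of 72 h and at most 0.166 CPM at 96 h. The risers were Dll3, a Notch ligand of the segmentation clock, from 6.49 ± 0.391 to 12.8 ± 1.61 CPM, and Rspo3, a secreted amplifier of Wnt signals, from 2.16 ± 0.369 to 4.58 ± 0.681 CPM. The fallers were Dll1, the main Notch ligand of this tissue, at 12.6, 12.0 and 13.1 CPM at 72 h and 4.81, 3.41 and 4.45 CPM at 96 h (-1.58 ± 0.32, edgeR adjusted p = 0.00101), and Mesp2, a segment boundary factor, from 1.76 ± 0.0437 to 0.716 ± 0.134 CPM.

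Somite genes gave 0 rises and 2 falls among 6 tested. Tcf15, a factor of the forming somite that is also made in epiblast, read 6.85, 7.54 and 6.14 CPM at 72 h and 3.59, 2.94 and 3.7 CPM at 96 h (-1.01 ± 0.19, edgeR adjusted p = 0.00049). Ripply1, which ends segment formation, fell from 3.46 ± 0.38 to 1.38 ± 0.214 CPM. Meox1 had at most 0.116 CPM in any of the 6 libraries. Meox2, Pax3, Pax9, Uncx, Nkx3-2 and Tbx18 had too few counts to be tested, with at most 15 counts per age each.

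Hox genes, which are switched on in order along the clusters, were not called. Of 12 tested members of groups 1 to 4, edgeR called 0, with 2 higher at an unadjusted p under 0.05, and the median change was 0.29. Hoxb1 read 5.85, 5.13 and 7.27 CPM at 72 h and 24.2, 10.2 and 14.5 CPM at 96 h (1.43 ± 0.67, edgeR adjusted p = 0.108), and Hoxb2 read 0.992, 1.02 and 0.775 CPM at 72 h and 7.74, 2.7 and 6.06 CPM at 96 h (2.51 ± 1.01, edgeR adjusted p = 0.0603). In both, every library of 96 h was above every library of 72 h, with replicate 2 lowest. The calls differed with the libraries that entered the estimate of the spread: without the 3 control libraries numbered 3, edgeR called Hoxa2, Hoxb1, Hoxb2 and Hoxb3 higher (Hoxb1 at an adjusted p of 1.05e-05) and Hoxb9 and Hoxd13 lower. Fitted on the 6 libraries alone, edgeR called Hoxb1 (adjusted p = 0.000151) and Hoxb2 (2.22e-05) higher and Hoxd13 lower (0.0218). The DESeq2 Wald test, fitted on all 18 libraries, called 0. With a replicate block edgeR called only Hoxb2 (adjusted p = 0.045), as did limma on log2(FPKM + 0.1) (adjusted p = 0.045). With no filter, edgeR called 5 members of groups 1 to 4 higher and 1 of groups 5 to 9 lower. Leaving out 1 of the 6 libraries gave a call in Hoxb2 (without replicate 2 of 96 h) and in Hoxc13 (lower, without replicate 3 of 96 h). Of groups 5 to 9, 0 of 12 were called, also at an unadjusted p under 0.05, and the list summed to at most 3.22 CPM in any of the 6 libraries. Of groups 10 to 13 only Hoxc13 and Hoxd13 could be tested, and 0 were called by edgeR, with 1 lower at an unadjusted p under 0.05.

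Wnt signalling genes rose on this day, for which no agent was listed. Of 14 feedback and target genes 9 rose and 0 fell, with a median change of 0.67, and 11 rose and 1 fell without the 3 control libraries numbered 3. Axin2, the general feedback target, read 79.4, 82.1 and 81.6 CPM at 72 h and 121, 124 and 109 CPM at 96 h (0.54 ± 0.06, edgeR adjusted p = 2.81e-06). The change was small, and the replicates were tight enough to separate the ages. Larger rises were those of Nkd1, a feedback inhibitor, from 9.54 ± 0.0988 to 19.8 ± 1.43 CPM, and Dkk1, a secreted inhibitor, from 2.18 ± 0.272 to 5.93 ± 0.776 CPM. Sp8, a relative of Sp5, rose by 0.90, the receptor Tnfrsf19 by 0.70 and the membrane inhibitor Apcdd1 by 0.66. Lef1, a nuclear partner of β-catenin, was at 109, 107 and 103 CPM at 72 h and 108, 103 and 103 CPM at 96 h and was not called (-0.02 ± 0.10, edgeR adjusted p = 0.893), nor were Notum, Znrf3, Lgr5 and Ccnd1.

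Of 9 tested Wnt ligands 7 rose and 0 fell. Per transcript length, at 96 h Wnt8a, a streak ligand, had the highest mean at 64.1 ± 8.55 FPKM (SD, n = 3), up from 34.6 ± 2.08 FPKM. Wnt3 followed at 13.3 ± 0.796 FPKM and Wnt5b at 11.5 ± 1.24 FPKM. Wnt11, a ligand of the non-canonical branch that acts in cell movement, read 0.496, 0.611 and 0.775 CPM at 72 h and 5.19, 6.44 and 5.72 CPM at 96 h (3.21 ± 0.28, edgeR adjusted p = 2.06e-07). Wnt5a, of the same branch, rose from 2.62 ± 0.24 to 4.64 ± 0.248 CPM. Wnt4 and Wnt6 were not called, at means of at most 1.25 CPM, and Wnt7b had too few counts to be tested.

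Nodal pathway genes were mixed, with 2 rises and 2 falls among 9, and 5 falls on the 6 libraries alone or without the 3 control libraries numbered 3. Lefty1, a Nodal antagonist that Nodal itself induces, read 241, 256 and 298 CPM at 72 h and 149, 109 and 153 CPM at 96 h (-0.96 ± 0.19, edgeR adjusted p = 0.000988), and Gdf3, a Nodal-related ligand, fell from 49.1 ± 1.72 to 19.6 ± 3.86 CPM. Cer1, described above, was among the risers. Tdgf1, the Nodal co-receptor, was at 461, 463 and 439 CPM at 72 h and 471, 553 and 522 CPM at 96 h and was not called (adjusted p = 0.558). Of 12 BMP genes 5 rose and 1 fell. Bmp7, a BMP ligand of the axial mesoderm, rose from 4.94 ± 0.446 to 13.8 ± 1.91 CPM, and Bmp5, Bmp2, Id1 and Smad6 rose from under 3 CPM. Smad7, an inhibitor of the pathway, fell from 49.4 ± 1.22 to 35.5 ± 1.5 CPM.

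FGF and ERK genes split into 6 rises and 8 falls of 16. Fgf4, the FGF of the epiblast, read 109, 106 and 106 CPM at 72 h and 34.1, 35.2 and 42.7 CPM at 96 h (-1.52 ± 0.10, edgeR adjusted p = 6.05e-09), with no overlap, opposite to Fgf8. Fgf15 fell from 45.1 ± 0.472 to 29.6 ± 1.76 CPM, the receptor Fgfr2 from 12.96 ± 1.11 to 6.68 ± 0.348 CPM and the ERK-responsive factor Etv5 from 573 ± 8.72 to 382 ± 16.4 CPM. Dusp6, an ERK phosphatase, rose from 81.3 ± 6.02 to 142 ± 9.65 CPM, while its relative Dusp4 fell from 81.8 ± 3.58 to 51.2 ± 2.18 CPM. The rise of the receptor Fgfr1 (0.39 ± 0.15, edgeR adjusted p = 0.0487) was lost in 13 of the alternative fits. On log2(FPKM + 0.1), limma called 5 members of the list lower in place of 8.

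Retinoic acid genes gave 4 rises and 2 falls of 11. The falls became 1 whichever of the 6 libraries was left out, through the receptor Rarg, and 4 without the 3 control libraries numbered 3. Aldh1a2, which makes retinoic acid in mesoderm, was at 1.34, 0.937 and 1.07 CPM at 72 h and 1.38, 0.805 and 0.982 CPM at 96 h and was not called. Dhrs3, which limits retinoic acid synthesis, rose from 2.32 ± 0.251 to 6.94 ± 0.5998 CPM. The receptor Rara fell from 48.0 ± 0.888 to 31.5 ± 1.53 CPM. Notch and clock genes gave 4 rises and 2 falls of 13. Hes1, a Notch target, read 22.0, 22.4 and 22.6 CPM at 72 h and 41.3, 40.2 and 45.7 CPM at 96 h (0.92 ± 0.11, edgeR adjusted p = 6.51e-06). Hes7, the clock oscillator, was at 0.332 CPM or less in all 6 libraries.

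Core and naive pluripotency genes fell more often than they rose. Of 10 core members 6 fell and 1 rose (median change -0.74), and of 15 naive members 8 fell and 0 rose (median -0.57), where 17.6% of all genes fell. Pou5f1, the factor Oct4, was at 1324, 1337 and 1334 CPM at 72 h and 1281, 1274 and 1326 CPM at 96 h. The ages overlapped and the change was -0.04 ± 0.22 (edgeR adjusted p = 0.905). Nanog, its homeobox partner, read 207, 211 and 210.4 CPM at 72 h and 356, 367 and 391.5 CPM at 96 h (0.83 ± 0.11, edgeR adjusted p = 1.73e-05). Sox2, which is shared by pluripotent and neural cells, read 144, 148 and 153 CPM at 72 h and 67.1, 57.9 and 69.9 CPM at 96 h (-1.19 ± 0.23, edgeR adjusted p = 0.000722). So Nanog was higher and Sox2 lower in every library of 96 h, while Pou5f1 was not called.

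Of the other core members, Utf1, a chromatin protein of pluripotent cells, read 237, 239.6 and 246 CPM at 72 h and 86.5, 94.1 and 97.3 CPM at 96 h (-1.38 ± 0.14, edgeR adjusted p = 1.25e-06). Dppa4 read 106, 105 and 109 CPM at 72 h and 44.5, 39.4 and 53.4 CPM at 96 h (-1.22 ± 0.12, edgeR adjusted p = 5.20e-07), and its partner Dppa2 fell from 70.5 ± 2.62 to 23.9 ± 3.48 CPM. Dppa5a, an RNA-binding protein, fell from 644 ± 17.8 to 362 ± 59.1 CPM. Each of the 4 was separated between the ages, as were 26.1% of all tested genes in the downward direction. Among the naive genes, Esrrb, a nuclear receptor, read 57.2, 63.7 and 59.9 CPM at 72 h and 39.0, 35.7 and 35.3 CPM at 96 h (-0.72 ± 0.11, edgeR adjusted p = 6.47e-05), and Zfp42 (Rex1) read 57.8, 58.9 and 57.0 CPM at 72 h and 38.6, 33.5 and 40.7 CPM at 96 h (-0.63 ± 0.08, edgeR adjusted p = 7.90e-06). Klf2 and Tbx3, factors of the naive state, fell from 43.8 ± 2.45 to 23.3 ± 2.82 CPM and from 8.98 ± 0.928 to 3.54 ± 0.219 CPM.

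The formative list, genes of the epiblast after implantation, gave 7 falls and 2 rises of 14. Foxd3, a forkhead factor, read 30.3, 29.1 and 32.1 CPM at 72 h and 9.17, 12.2 and 12.2 CPM at 96 h (-1.44 ± 0.14, edgeR adjusted p = 5.95e-07), and Pou3f1 (Oct6) fell from 92.6 ± 2.05 to 53.6 ± 2.67 CPM. Otx2, of the anterior epiblast, fell from 147 ± 4.08 to 104 ± 6.68 CPM, and lost its call in 5 of the alternative fits. The risers were Fst, the activin antagonist follistatin, at 119.6, 111 and 108 CPM at 72 h and 329, 322 and 327 CPM at 96 h (1.53 ± 0.20, edgeR adjusted p = 1.43e-05), and Fgf5, at 89.3, 89.7 and 83.8 CPM at 72 h and 146, 163 and 146 CPM at 96 h (0.79 ± 0.23, edgeR adjusted p = 0.0126). In both, every library of 96 h was above every library of 72 h. The Fgf5 call was lost in the DESeq2 Wald test (adjusted p = 0.104), in limma on log2(FPKM + 0.1) (adjusted p = 0.132) and against a 2-fold null. Sox3, Zic2 and Zic5 were not called, with changes between -0.09 and 0.08.

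DNA methylation genes fell in 6 of 9 cases and rose in 1 (median -0.55). Dnmt3l, the cofactor of the de novo methyltransferases, read 56.2, 63.6 and 64.3 CPM at 72 h and 20.1, 15.0 and 21.8 CPM at 96 h (-1.70 ± 0.12, edgeR adjusted p = 1.15e-08). Dnmt3a, a de novo enzyme, read 619, 653 and 634 CPM at 72 h and 321, 331 and 325 CPM at 96 h (-0.96 ± 0.09, edgeR adjusted p = 7.48e-07), and Dnmt3b fell from 2194 ± 22.4 to 1484 ± 52.8 CPM. Tet1, which oxidises methylcytosine, fell from 336 ± 24.9 to 229 ± 43.4 CPM. Dnmt1, the maintenance enzyme, fell by 0.12 on the log2 scale, and Tet3 rose by 0.37, a call lost in 6 alternative fits, among them those without replicate 2 or 3 of 72 h or replicate 2 of 96 h.

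**Figure D3:**
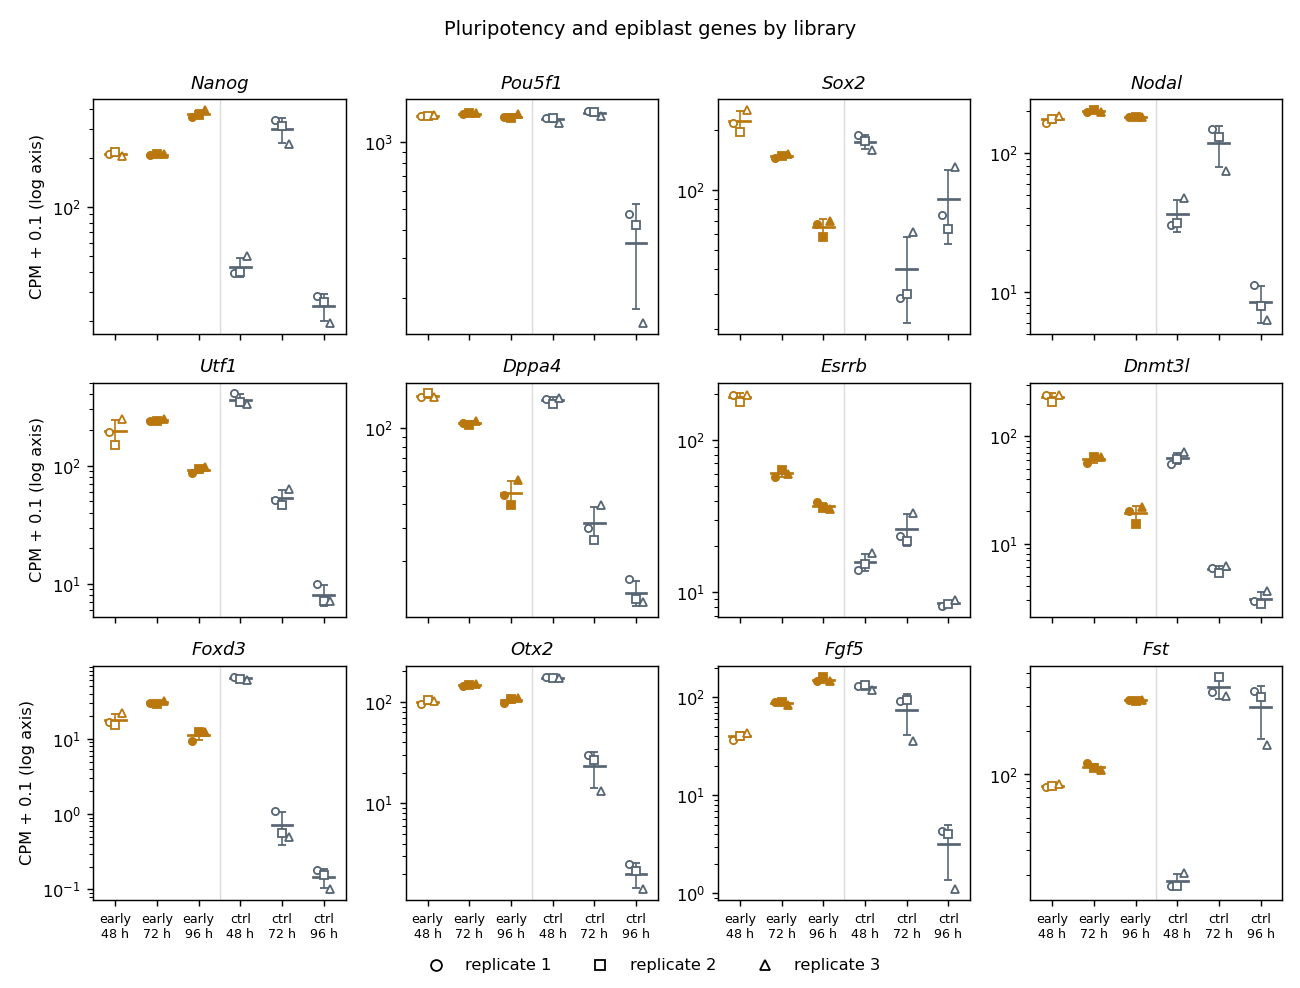
CPM + 0.1 on log axes of 12 pluripotency and epiblast genes in all 18 libraries, drawn as for the streak genes. From 72 to 96 h in the early arm, the libraries of Nanog, Fgf5 and Fst moved up and those of Sox2, Utf1, Dppa4, Esrrb, Dnmt3l, Foxd3 and Otx2 moved down without overlap. Of all tested genes, 26.9% were separated upward and 26.1% downward. Nodal also lay lower at 96 h without a call, and Pou5f1 overlapped.

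Mesenchymal genes rose by small amounts. Of 13 mesenchymal members 8 rose and 1 fell (median 0.70), but only 3 by at least 2-fold. Cdh2 (N-cadherin) read 17.2, 16.1 and 17.0 CPM at 72 h and 27.0, 28.1 and 27.7 CPM at 96 h (0.72 ± 0.12, edgeR adjusted p = 0.000198). Pdgfrb, a growth factor receptor of mesenchyme, rose from 1.19 ± 0.289 to 4.1 ± 1.13 CPM, Cdh11 from 1.25 ± 0.356 to 5.5 ± 1.72 CPM and the intermediate filament Vim from 56.4 ± 3.33 to 90.1 ± 5.25 CPM. The faller was Fn1 (fibronectin), from 445 ± 15.5 to 261 ± 24.3 CPM, whose call was lost in 6 alternative fits, among them those without replicate 2 of 72 h or replicate 3 of 96 h. Cdh1 (E-cadherin) was at 793, 782 and 794 CPM at 72 h and 665, 732 and 653 CPM at 96 h and was not called (-0.21 ± 0.16, edgeR adjusted p = 0.33), although its ages did not overlap. It was called lower, at about the same size, on the 6 libraries alone (edgeR adjusted p = 0.00155), without the 3 control libraries numbered 3 (0.00016) and with no filter (0.000585).

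Of 14 epithelial members 3 rose and 2 fell, and 4 fell without the 3 control libraries numbered 3. The keratin Krt8 read 14.4, 16.3 and 14.2 CPM at 72 h and 32.2, 28.6 and 31.4 CPM at 96 h (1.03 ± 0.21, edgeR adjusted p = 0.000802), Krt18 rose by 0.50 and the tight-junction protein Cldn7 by 0.47. Its relative Cldn4 fell by 0.64 on the log2 scale, and so did Grhl2, an epithelial regulator, by 0.80. Epcam was at 227, 228 and 223 CPM at 72 h and 217, 223 and 238 CPM at 96 h and was not called. Extracellular matrix genes gave 5 rises and 3 falls of 14, among them the basement membrane collagen Col4a1, from 75.1 ± 1.36 to 109 ± 3.43 CPM.

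Large rises were also found in other genes. Aplnr, the apelin receptor of migrating mesoderm, had 4 counts over the 3 libraries of 72 h and read 8.29, 6.63 and 3.98 CPM at 96 h (fitted change 6.47 ± 1.04, edgeR adjusted p = 0.000115). Apln, its ligand, rose from 8.84 ± 1.06 to 73.6 ± 12.0 CPM (SD, n = 3). Mab21l2 read 3.92, 4.28 and 4.59 CPM at 72 h and 38.6, 37.4 and 36.6 CPM at 96 h (3.14 ± 0.35, edgeR adjusted p = 2.46e-06). Cpxm2, a carboxypeptidase-like protein, read 0.546, 0.733 and 0.953 CPM at 72 h and 8.29, 6.2 and 5.54 CPM at 96 h (3.17 ± 0.32, edgeR adjusted p = 1.13e-06). No overlap between the ages was a condition for ranking among the largest rises, so the separation of these genes was given by their selection.

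The largest falls were smaller than the largest rises. Gadd45g, a stress and differentiation gene, read 9.57, 11.4 and 12.8 CPM at 72 h and 2.38, 1.7 and 2.54 CPM at 96 h (-2.35 ± 0.27, edgeR adjusted p = 4.29e-06). Nupr1, a stress-induced chromatin protein, read 8.33, 9.08 and 8.52 CPM at 72 h and 1.77, 1.42 and 2.31 CPM at 96 h (-2.25 ± 0.24, edgeR adjusted p = 1.92e-06). Taf7l, a germ cell variant of a TFIID subunit, read 6.45, 6.64 and 6.56 CPM at 72 h and 1.11, 1.37 and 2.54 CPM at 96 h (-1.98 ± 0.26, edgeR adjusted p = 1.44e-05). The other 5 of the 8 largest falls by the rule used were Aoah, Slc5a11, Halr1, Ptprv and P2rx7, at changes of -1.94 to -1.80. Halr1, a long non-coding RNA, read 10.2, 13.8 and 11.3 CPM at 72 h and 4.31, 2.23 and 3.29 CPM at 96 h.

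Stress and metabolic lists moved by small amounts. Of 13 p53 response genes 8 fell and 1 rose (median -0.18), and 0 rose whichever of the 6 libraries was left out. Mdm2, the p53 ligase and target, read 173, 172 and 177 CPM at 72 h and 118, 107 and 110.2 CPM at 96 h (-0.64 ± 0.05, edgeR adjusted p = 6.84e-08), and Bax fell from 103 ± 0.985 to 77.9 ± 3.85 CPM, while Cdkn1a and Trp53 were not called. Of 13 genes of the amino acid response driven by Atf4, 10 fell and 0 rose (median -0.26), and limma on log2(FPKM + 1) called 6 lower. Trib3 fell from 31.05 ± 1.68 to 20.1 ± 1.66 CPM and Slc7a11, a cystine carrier, from 6.73 ± 0.336 to 3.33 ± 0.732 CPM. Of 16 hypoxia and glycolysis genes 7 rose and 2 fell (median 0.22). Ndrg1 read 6.8, 9.33 and 8.64 CPM at 72 h and 41.3, 47.9 and 39.0 CPM at 96 h (2.37 ± 0.27, edgeR adjusted p = 3.71e-06), far more than the other members, such as Ldha, at 0.35 ± 0.05. Pfkp, a phosphofructokinase, was the clearest faller, from 102 ± 3.96 to 61.8 ± 2.38 CPM.

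The counts of the remaining lists were small, and several moved with the libraries used. Proliferation genes gave 2 rises and 3 falls of 14, sterol synthesis 2 and 1 of 14, immediate early and stress genes 3 and 3 of 14, imprinted genes 1 and 2 of 14, and neural progenitor genes 1 and 1 of 8. No proliferation gene rose without replicate 1 or 2 of 72 h or replicate 3 of 96 h, and 5 fell without the 3 control libraries numbered 3. The rises of immediate early genes became 0 without replicate 1 of 96 h and 1 with any single library of 72 h left out or without replicate 2 of 96 h. Sterol rises were 5, imprinted rises 3 and imprinted falls 6 without the 3 control libraries numbered 3, and 1 imprinted gene fell without replicate 1 of 72 h or replicate 2 of 96 h. The neural rise was lost without replicate 3 of 72 h or replicate 1 or 2 of 96 h. The neural faller was Pax6, from 3.84 ± 0.445 to 1.59 ± 0.4002 CPM. Germ cell genes gave 2 rises and 2 falls of 10, with Kit, a growth factor receptor, up from 23.4 ± 0.718 to 44.7 ± 3.41 CPM and the RNA-binding protein Dazl at 10.4, 9.29 and 11.1 CPM at 72 h and 3.26, 2.84 and 3.23 CPM at 96 h (-1.72 ± 0.15, edgeR adjusted p = 2.32e-07). Endothelium and blood genes gave 2 rises (Aplnr and Lmo2) and 4 falls of 10. Pecam1, an adhesion molecule also made by pluripotent cells, fell from 30.6 ± 2.21 to 10.2 ± 0.521 CPM. Definitive endoderm gave 2 rises (Foxa2 and Cer1) and 1 fall of 9, and Sox17 was at 0.446, 0.693 and 0.834 CPM at 72 h and 1.6, 1.23 and 0.751 CPM at 96 h and was not called (adjusted p = 0.0966, or 0.0348 on the 6 libraries alone). Extraembryonic endoderm gave 2 and 1 of 12, cardiac mesoderm 1 and 0 of 7, trophoblast 0 and 1 of 6, fibroblast and feeder genes 1 and 0 of 6, genes of the 2C-like state 0 and 2 of 3 (Zscan4 copies, whose reads may be shared), and mitochondrially encoded genes 0 and 0 of 6 by edgeR, with 0 at an unadjusted p under 0.05 but 6 falls with no filter. The 2C-like falls became 0 without replicate 1 of 96 h and 1 without replicate 1 or 2 of 72 h or replicate 2 of 96 h. The fibroblast rise was lost without any 1 library other than replicate 3 of 96 h, and 1 germ cell gene rose without any 1 library other than replicate 2 of 96 h. The definitive endoderm fall was lost without replicate 1 of 96 h. On the 6 libraries alone, 5 definitive and 6 extraembryonic endoderm genes rose.

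**Figure D4:**
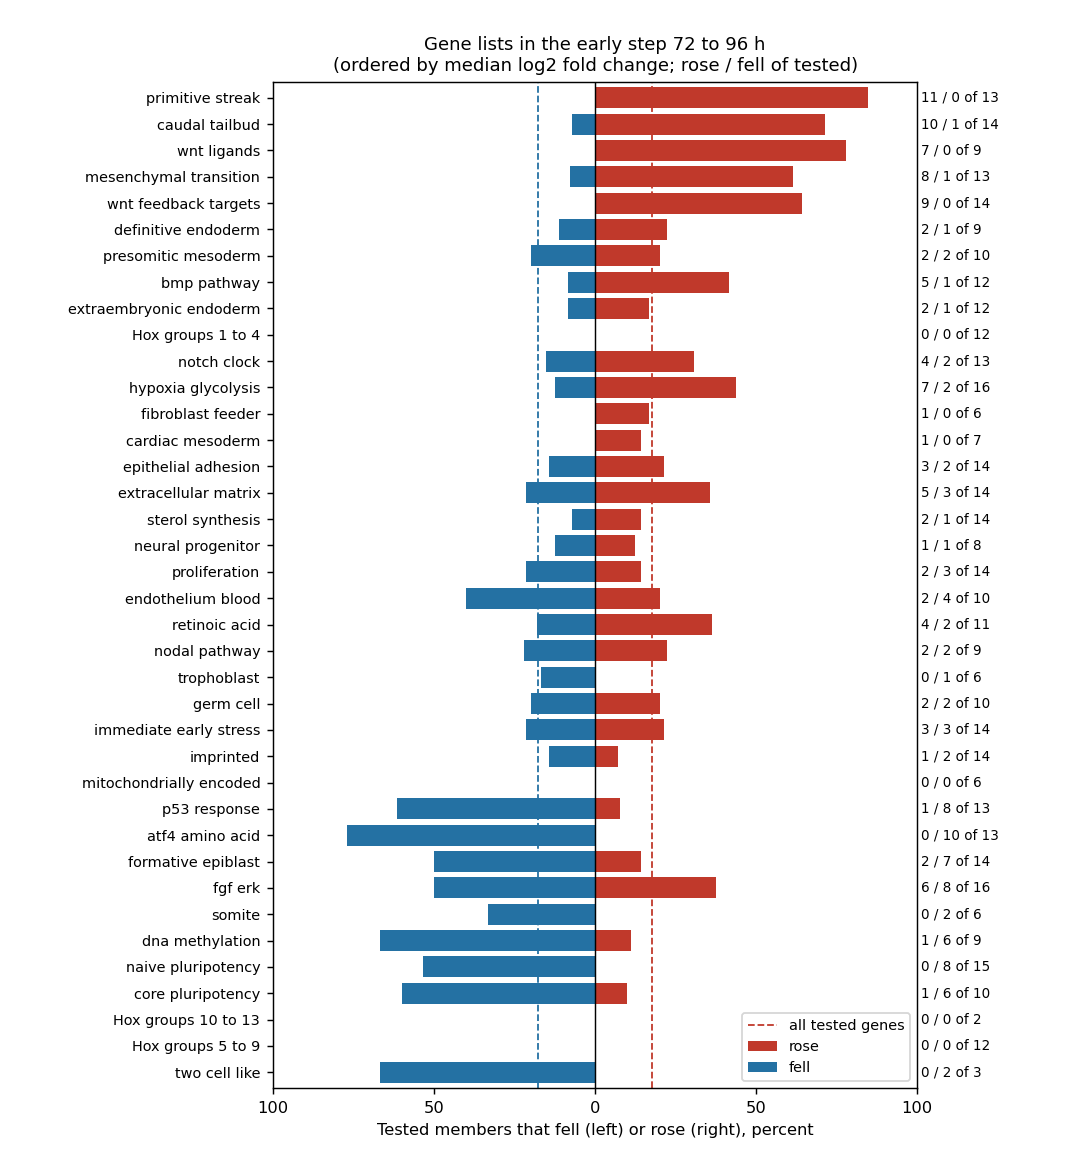
Share of tested members (percent) that rose (red, right) or fell (blue, left) from 72 to 96 h in the early arm, for 38 gene lists ordered by their median change, with counts at the right. Dashed lines mark the 17.6% of all tested genes that rose and the 17.6% that fell. The streak list, at 11 of 13, and the caudal list, at 10 of 14, head the order by median.

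The same day was then compared with the control arm, in which 72 h was the end of the pulse and 96 h a day after it. The difference of the steps was called for 5383 genes (33.6%), 2858 of them higher (17.8%) and 2525 lower (15.7%) in the early arm, and for 6628 without the 3 control libraries numbered 3. The control step called 54.9% of genes, 4410 higher and 4392 lower. Of the genes that rose in the early step, 54.3% (1535) also rose in the control step and 366 fell. These were 34.8% of the control risers and 8.33% of the control fallers. Of the genes that fell, 56.6% (1603) also fell in the controls and 9.12% (258) rose, which were 36.5% of the control fallers and 5.85% of the control risers. All 366 and 258 genes with opposite calls also had a called difference between the steps. With opposite signs the difference is larger than either change, so this was nearly given by the selection. It is no separate evidence that the steps differed.

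Several streak and organizer genes rose in the early arm and fell in the controls, but the streak list as a whole did not fall there. In the control step 7 of its 13 members rose and 6 fell, with a median change of 0.59, where 54.9% of all genes were called. Of 13 streak members, 9 had a higher change in the early arm and 0 a lower one, against 17.8% and 15.7% of all genes (9 and 1 without the 3 control libraries numbered 3). T read 1008, 1263 and 872 CPM in the controls of 72 h and 747, 653 and 473 CPM at 96 h, and the difference of the steps was 5.24 ± 0.23, edgeR adjusted p = 1.17e-11 (5.19 without those libraries). Eomes went from 125, 123 and 26.3 to 3.86, 2.88 and 0.624 CPM in the controls, a difference of 7.17 ± 0.60, edgeR adjusted p = 5.93e-08 (7.21 without the control libraries numbered 3). Gsc went from 5.92, 5.99 and 0.715 to 0.447, 0.109 and 0.312 CPM (8.04 ± 0.85, edgeR adjusted p = 1.04e-06; 8.54 without those libraries). The control libraries numbered 3 were the lowest of their group in Eomes at both ages and in Gsc at 72 h. Wnt11 and Mab21l2 also rose in the early arm and fell in the controls, with differences of 5.86 ± 0.40 and 6.23 ± 0.51 (5.90 and 5.98 without those libraries).

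Several epiblast genes had a higher change in the early arm, although the pluripotency lists were mixed: 5 of 10 core members had a higher change and 3 a lower one, and 2 and 5 of 15 naive members. Nanog went from 342, 313 and 242 to 28.2, 26.1 and 19.3 CPM in the controls, a difference of 4.42 ± 0.17, edgeR adjusted p = 2.21e-12. For Nodal the difference was 3.63 ± 0.29, edgeR adjusted p = 3.84e-08, with 11.1, 7.82 and 6.17 CPM left in the controls of 96 h. Pou5f1, not called in the early arm, fell in the controls, and the difference was 1.89 ± 0.32, edgeR adjusted p = 0.000176. Of 14 formative genes 10 had a higher change in the early arm and 1 a lower one, and of 14 epithelial genes the counts were 10 and 1. Without the 3 control libraries numbered 3 the core list gave 4 and 4, the naive list 2 and 9, the formative list 10 and 2 and the epithelial list 10 and 1, and the differences were 4.41 for Nanog, 3.70 for Nodal and 1.56 for Pou5f1.

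Presomitic, Hox and retinoic acid genes gave the opposite differences, while the caudal and tailbud list was mixed. Of 10 presomitic genes 8 had a lower change in the early arm and 0 a higher one. Of 12 Hox genes of groups 1 to 4, 6 were lower and 0 higher, and of 12 of groups 5 to 9, 7 and 0. When every control replicate 3 was left out, the 3 lists gave 9, 11 and 11 lower and 0 higher, and Tbx6 and Aldh1a2 differed by -6.24 and -8.84. Tbx6 reached 243, 261 and 98.5 CPM in the controls of 96 h, against 1.6, 0.8998 and 0.809 CPM in the early arm (-6.02 ± 1.06, edgeR adjusted p = 0.000248). Hes7 reached 117, 119 and 132 CPM (-8.58 ± 1.14, edgeR adjusted p = 1.40e-05; -9.10 without the control libraries numbered 3 and -9.91 without replicate 1 of the early 96 h libraries), and Aldh1a2 reached 413, 455 and 41.8 CPM (-8.25 ± 2.00, edgeR adjusted p = 0.0038). Hoxb9 reached 41.3, 46.0 and 395 CPM and Hoxd4 6.22, 6.57 and 12.0 CPM. Hoxd4 and Hoxb5 had 0 counts in the early libraries of 96 h, so their fitted differences (-13.35 and -11.16, or -13.08 and -14.02 without the control libraries numbered 3) depend on the prior count. The difference in Hoxb9 (-10.90 ± 3.97, edgeR adjusted p = 0.0417) was -10.69 without all 3 control libraries numbered 3, -12.55 without that of 72 h alone and -9.03 without that of 96 h alone. It lost its call in 9 fits, among them that without replicate 1 of the early 96 h libraries (-11.84, edgeR adjusted p = 0.0516). The difference in Hoxb5 lost its call without replicate 1 of the early 72 h libraries. Of 11 retinoic acid genes 10 had a lower change in the early arm and 0 a higher one, with or without the control libraries numbered 3. Of 14 caudal and tailbud genes 3 had a higher and 4 a lower change in the early arm, against 17.8% and 15.7% of all genes. Without the control libraries numbered 3 these counts were 3 and 6. In the control step 13 of the 14 rose and 1 fell, with a median change of 2.54, against 1.74 in the early arm.

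Other genes had a difference that was not called. Of 14 Wnt targets, of which 10 rose and 2 fell in the controls, 5 had a higher and 2 a lower change in the early arm, and 8 and 3 without the 3 control libraries numbered 3. Nkd1, at 1.06 in the early arm and 1.08 in the controls, gave a difference of -0.02 ± 0.14, edgeR adjusted p = 0.939. Dppa4 and Gdf3 fell in both, with differences of -0.03 ± 0.18 and -0.01 ± 0.28 that were not called (-0.29 and 0.08 without the 3 control libraries numbered 3, not called either).

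**Figure D5:**
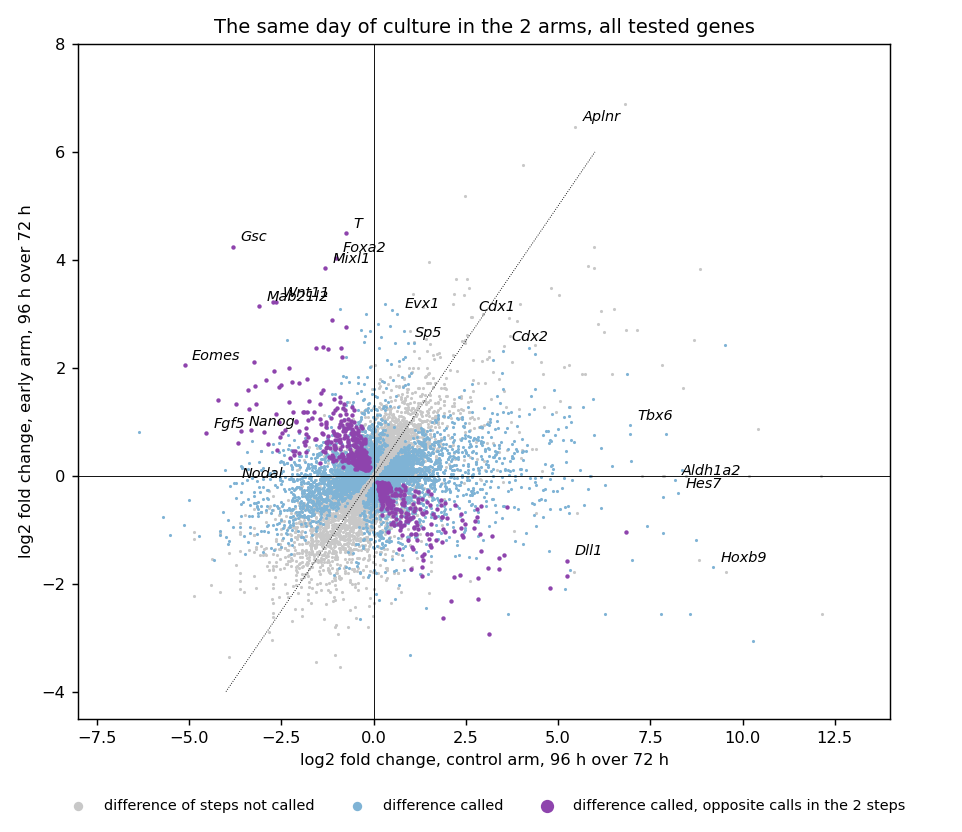
Log2 fold change from 72 to 96 h in the early arm (vertical axis) against that in the control arm (horizontal axis), 1 point per tested gene, with a dotted line where both are equal. Blue points have a called difference between the steps, and purple points also have opposite calls. Gsc, Eomes, T and Wnt11 lie at the upper left, rising in the early arm and falling in the controls. Tbx6, Hes7, Aldh1a2 and Hoxb9 lie at the right, at 0.94 or less in the early arm.

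The step was also set against the control day that spans the control pulse, 48 to 72 h, which shares no library with it. The difference was called for 5731 genes (35.7%), 2789 higher (17.4%) and 2942 lower (18.3%) in the early step, and for 6575 without the 3 control libraries numbered 3. T rose in both, from 0.713, 0.297 and 0.769 to 1008, 1263 and 872 CPM in the controls, and by less in the early step (-6.32 ± 0.38, edgeR adjusted p = 8.20e-10). At their ends the levels were nearer: 478 to 641 CPM in the early libraries of 96 h, still below every control library of 72 h. For Foxa2 the rises were 4.04 and 3.84, with a difference of 0.20 ± 0.66, edgeR adjusted p = 0.846, and for Gsc 4.25 and 4.05 (difference 0.19 ± 1.09, edgeR adjusted p = 0.913). Neither difference was called. Without the 3 control libraries numbered 3 the differences were -6.62 for T, and -0.17 for Foxa2 and -0.26 for Gsc, the last 2 of opposite sign and not called.

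Axin2, Sp5, Cdx1 and Hoxb1 had smaller changes than on the control pulse day. Axin2 went from 12.0, 12.3 and 13.7 to 215, 234 and 196 CPM in the controls (difference -3.54 ± 0.09, edgeR adjusted p = 2.39e-14; -3.65 without the control libraries numbered 3). Sp5 and Cdx1 had 0 counts in the controls of 48 h, so that their fitted differences, -10.48 and -10.42 (-10.56 and -9.66 without the control libraries numbered 3), depend on the prior count. They reached 50.9, 56.3 and 49.0 CPM and 31.3, 49.1 and 132 CPM at 72 h. Hoxb1 reached 18.98, 29.9 and 164 CPM, with replicate 3 far above the others. Its difference of -7.60 became -6.09 without that library and -6.79 without all 3 control libraries numbered 3. The epiblast genes Foxd3 and Otx2 fell less in the early step: Foxd3 went from 67.1, 62.6 and 61.0 to 1.01, 0.469 and 0.39 CPM in the controls, a difference of 5.18 ± 0.27, edgeR adjusted p = 1.29e-10 (5.02 without the control libraries numbered 3), and Otx2 differed by 2.40 ± 0.22, edgeR adjusted p = 1.47e-07 (2.15 without them).

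The last comparison was with the day before, 48 to 72 h in the early arm, which uses the same libraries of 72 h. The difference between the days was called for 2629 genes (16.4%), 1134 higher (7.07%) and 1495 lower (9.32%) on the second day. It was called for 4456 genes without the 3 control libraries numbered 3, and for 1510, 1524 and 1451 without replicate 1, 2 or 3 of the early 72 h libraries. T, Evx1 and Cdx1, which fell from 48 to 72 h (edgeR adjusted p = 0.00316, 0.0153 and 0.0116), rose again. T read 39.2, 37.2 and 45.4 CPM at 48 h, the end of the pulse, before the values already given, and the difference between the days was 5.21 ± 0.32, edgeR adjusted p = 2.82e-08. Evx1 was at 7.11, 4.66 and 8.35 CPM (4.25 ± 0.66, edgeR adjusted p = 0.000275) and Cdx1 at 6.62, 5.71 and 5.49 CPM (5.73 ± 1.46, edgeR adjusted p = 0.0134). At 96 h Cdx1 was thus back near its level of 48 h, whereas T and Evx1 exceeded it. Tgfbr3, a co-receptor of TGF-β ligands, read 39.4, 37.8 and 42.2 CPM at 48 h, then 9.47, 10.1 and 8.46 CPM at 72 h and 39.4, 47.9 and 33.8 CPM at 96 h (4.19 ± 0.34, edgeR adjusted p = 4.84e-07).

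Other genes rose on the first day and fell on the second. Foxd3 went from 16.8, 15.1 and 21.6 CPM at 48 h to 30.3, 29.1 and 32.1 and then 9.17, 12.2 and 12.2 CPM (-2.21 ± 0.23, edgeR adjusted p = 4.28e-06). Pou3f1 followed the same course, with a difference of -2.14 ± 0.15, edgeR adjusted p = 1.01e-07. Spon1, a matrix protein, went from 0.338, 0.675 and 0.629 to 5.46, 6.15 and 5.36 and then 3.92, 3.46 and 2.71 CPM (-4.14 ± 0.40, edgeR adjusted p = 2.46e-06). The fall slowed in Esrrb and Zfp42, naive genes of the fixed panel. Esrrb fell by 1.66 on the first day and by 0.72 on the second, on the log2 scale (0.95 ± 0.19, edgeR adjusted p = 0.00205), and Zfp42 by 1.48 and 0.63 (0.85 ± 0.13, edgeR adjusted p = 0.000282). The other naive members are not given for this comparison.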

How the data were processed

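RNA sequencing measured polyA transcripts in 18 libraries, of which the 6 early libraries of 72 and 96 h were compared. The authors deposited a table of counts (55385 genes) and a table of FPKM (55468 genes). Per the submitters' processing notes, the tools named were cutadapt 4.0, STAR 2.7.8a and Cufflinks 2.2.1 and the build mm10. How reads were counted, and whether by strand, was not given in the sources used here, so antisense neighbours and near-identical copies may share reads. The labels' protocols name 2 library preparation codes without assigning them to libraries.

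Deposited counts were filtered with edgeR's filterByExpr (16041 genes left), scaled by TMM and fitted with edgeR 4.0.16 quasi-likelihood tests (R 4.3.3) over 18 libraries with 1 coefficient per group. Standard errors were taken as the absolute log2 fold change over the root of F. The step, its differences from 3 other steps and those steps themselves were each adjusted by Benjamini-Hochberg. Total counts were 14841728 to 24536538 per library. Alternatives used DESeq2 1.42.0, other filters, fewer libraries, a replicate block, and limma 3.58.1 on log2(FPKM + 1) or log2(FPKM + 0.1), and the fits were tested on simulated data. Figures and summaries used Python 3.11.15. The rule named the 8 largest rises and 8 largest falls, among genes with a mean of at least 5 CPM and no overlap between ages. It also named up to 4 members per list, members called against their list, the 4 largest differences in each direction and a fixed panel. Other list members, Apln and Evx1os were named after their values were seen. The 38 lists hold 430 names, 382 of them tested. A few genes that the rule or lists hold are not reported here. The comparison and the lists were chosen with earlier results of these data known.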

Additional observations from a re-analysis of the deposited data

Results flagged for a closer look

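The step from 72 to 96 h in the early arm differed from each of the other steps by a test of the difference itself, as log2 values of the early step minus the other step. The genes given are the largest differences among named genes of at least 5 CPM in some group compared. Against the control step of the same age, 5383 genes differed. The largest positive differences, in genes that rose in the early arm and fell in the controls, were those of Gsc (8.04), Eomes (7.17), Mab21l2 (6.23) and Wnt11 (5.86). The largest negative ones, in genes that rose in the controls and were not called in the early arm, were Hoxd4 (-13.35), Hoxb5 (-11.16), Hoxb9 (-10.9) and Hes7 (-8.58). Hoxd4 and Hoxb5 had 0 counts in the early libraries of 96 h, so the sizes depend on the prior count, and they were -13.08 and -14.02 without the 3 control libraries numbered 3.

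Against the control step of 48 to 72 h, which spans the pulse, 5731 genes differed. The most negative differences were Sp5 (-10.48), Cdx1 (-10.42) and Hoxb1 (-7.6), and the sizes for Sp5 and Cdx1 depend on the prior count. The most positive were Foxd3 (5.18), Il10 (4.32), Lrtm2 (4.12) and Tnfsf11 (3.96). Il10 read 1.14, 1.55 and 1.31 CPM at 72 h and 0.718, 0.568 and 0.809 CPM at 96 h, against 10.03, 11.3 and 11.9 CPM in the controls of 48 h and 0.426, 0.208 and 0.195 CPM at 72 h. Lrtm2 was not called in the early step. Without the 3 control libraries numbered 3, Il10, Lrtm2 and Tnfsf11 differed by 4.10, 4.31 and 3.96.

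Against the first day after the pulse, which shares the libraries of 72 h, 2629 genes differed. The most positive differences were Cdx1 (5.73), T (5.21), Evx1 (4.25) and Tgfbr3 (4.19). The most negative were Spon1 (-4.14), Ttbk1 (-3.98), Gadd45g (-2.84) and Nrk (-2.71). Nrk read 1.93, 2.03 and 2.35 CPM at 48 h, then 9.03, 9.9 and 11.5 CPM at 72 h and 8.18, 8.15 and 5.89 CPM at 96 h.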

How the results depend on the processing

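In the step, 5656 genes were called, and 109 against a 2-fold null. All other settings stayed within 1.5 times, at 4423 to 4910 with 1 library left out and 7514 without the 3 control libraries numbered 3. The difference from the control step of the same age gave 4650 to 6070 with 1 library left out, and that from the control pulse day 5020 to 5425. The difference from the first early day (2629) moved most: 4128 with only the groups compared, 4456 without the 3 control libraries numbered 3, 1665 on log2(FPKM + 0.1), 1493 on log2(FPKM + 1) of all genes, and 1451 to 2382 with 1 library left out, the lowest without a library of early 72 h. With a replicate block the 4 counts were 5954, 5595, 5966 and 2853. Deviations of same-numbered libraries of 72 and 96 h correlated at 0.0108, 0.0519 and 0.0266, so the numbers were not taken as pairs, although each correlated best with its own number.

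Among 3153 values of 187 genes in the step, 2836 kept their direction and call, 235 lost the call, 58 gained it and 24 changed sign, all in uncalled genes. The cause was not tested. The changed values were Hoxd8 -0.17 to 1.73 with 1 library left out; Isl1 -0.0068 on log2(FPKM + 1) and on log2(FPKM + 1) of all genes, -0.057 on log2(FPKM + 0.1) and -0.18 to 0.49 with 1 library left out; Gata2 0.035 on log2(FPKM + 1) and on log2(FPKM + 1) of all genes, 0.20 on log2(FPKM + 0.1) and -0.54 to 0.096 with 1 library left out; mt-Nd1 -0.34 to 0.023 with 1 library left out; Hes7 -1.66 to 0.18 with 1 library left out. Others were Lrtm2 -0.14 to 0.28 with 1 library left out; Pou5f1 0.017 on log2(FPKM + 1) and on log2(FPKM + 0.1) and on log2(FPKM + 1) of all genes; Meox1 0.0048 on log2(FPKM + 1) and on log2(FPKM + 1) of all genes, 0.028 on log2(FPKM + 0.1) and -3.08 to 0.45 with 1 library left out; Aldh1a2 -0.32 to 0.10 with 1 library left out. Of 481 values of differences, 469 kept their call and 12 lost it (Hoxb9 9, Cdx1 2, Hoxb5 1). Msgn1 had 1 count over the 3 libraries of 72 h, so no fold is given for it at this depth.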

Other observations

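Several genes known from germ cells stood among the 30 largest falls, a description chosen after the values were seen: Taf7l from 6.55 ± 0.0961 to 1.67 ± 0.763 CPM, Sycp1 from 9.59 ± 0.915 to 2.88 ± 0.12 CPM, Dazl from 10.3 ± 0.935 to 3.11 ± 0.235 CPM, Tex11 from 8.31 ± 0.618 to 2.54 ± 0.292 CPM and Sohlh2 from 9.49 ± 0.252 to 3.14 ± 0.339 CPM (SD, n = 3). Sycp1 is a protein of the synaptonemal complex, Tex11 a meiotic protein and Sohlh2 a factor of early germ cells. No test was made of these picks. The list of germ cell genes gave 2 rises (Kit and Tfap2c) and 2 falls of 10 tested, with a median change of -0.12.

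In distances over the 1000 most variable genes, the early libraries of 96 h lay 31.5 to 34.4 from the controls of 72 h and 36.9 to 41.8 from the early libraries of 72 h. Those of 72 h lay 33.0 to 33.6 from the early libraries of 48 h.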
